A study of Arabidopsis thaliana with 6 samples.

Results

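Long constitutive introns are introns of 500 nt or more for which the count table lists no annotated alternative. They were taken from the junction and boundary counts of the series as intron entries with a single junction, a distance between exons of at least 500 nt and at least 30 reads in each condition, summed over both boundaries and the junction. The rule found 1819 such introns in 1700 genes, out of 57879 constitutive introns that met the same read minimum and 68085 entries with a single junction. RNA sequencing was performed on 6 libraries of polyA RNA from whole imbibed seeds of wild-type Col-0, 3 after a red pulse (Rp) and 3 after a far-red pulse (FRp). Before that, every sample spent 2 h in the dark on 0.8% agar, received a first FRp to lower the active Pfr form of phytochrome, and was stratified at 5 °C in the dark for 3 days. Both kinds of second pulse took 20 min. The Rp had a fluence rate of 0.05 µmol per square metre and second and set a share of Pfr of 0.87 by calculation, while the FRp had one of 42 µmol in the same unit and a share of 0.03, and seeds were collected 12 h later as 3 biological replicates each. All seeds therefore shared the genotype, the first FRp and the stratification, and whole seeds mix embryo and seed coat tissues. The comparison asks how the red light signal perceived by phytochrome changes pre-mRNA splicing during germination.

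Introns are removed by the spliceosome, which recognizes a donor site at the 5′ end, a branch point, and an acceptor site at the 3′ end. Most plant introns are short, and intron retention, in which an unspliced intron stays in a polyadenylated RNA, is the most frequent form of alternative splicing in plants. Long introns in Arabidopsis are known for other content as well, such as leader introns that raise expression, the vernalization elements of FLC, and polyadenylation sites that lie before the intron's end.

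Retention was measured as the percentage of intron retention (PIR), the reads over both exon-intron boundaries divided by these reads plus 2 times the reads on the exon-exon junction. Because PIR averages the donor and the acceptor boundary, reads over only 1 of them do not show that the whole intron is in the RNA, and both counts are given where they matter. The sequences below show the splice sites of long introns whose values the results turn on, each as 10 bases of exon and 20 bases of intron at the donor, or 20 bases of intron and 10 of exon at the acceptor, with the first 2 or last 2 bases of the intron in capitals. Sequences and strands are from TAIR10.1 (RefSeq). The first set holds introns of 3 genes of serine/arginine-rich (SR) splicing factors and of the flowering regulator SUF4, all of them called for a change in retention. The SR30 intron lies at chr1:2943565-2944168 on the minus strand, the RS31 intron at chr3:22901256-22902053 on the minus strand, the SCL30A intron at chr3:4430320-4431044 on the minus strand and the SUF4 intron at chr1:11040685-11041203 on the minus strand.
SR30 donor: ctgtctcaagGTatgagtgttagatttgta
SR30 acceptor: ttgcgttgtttgttttctAGatctggctca
RS31 donor: atgaaatctgGTaaagtgtcttctaagtta
RS31 acceptor: tgtgctttcttttgttgcAGgatatgcttt
SCL30A donor: actatactggGTgaggatgctctgtagata
SCL30A acceptor: gtttgttggatttgttgcAGagatccaagg
SUF4 donor: aaccagccagGTaagttctgatttaccctt
SUF4 acceptor: ttgtttcttttggtttgcAGatgaactcga

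The next set holds introns of genes for factors of mRNA 3′ end formation, whose boundary reads lay almost only over the donor. The FPA intron lies at chr2:18029349-18030719 on the minus strand, the FIP1[V] intron at chr5:23489633-23490160 on the plus strand and the AT4G25550 intron at chr4:13049193-13049849 on the plus strand.
FPA donor: cgcacgaccgGTttgttcttatctatatct
FPA acceptor: tcgaccttttcttgttgcAGgcaaaacctt
FIP1[V] donor: tcagtttaagGTcagtgtcgatgcaacact
FIP1[V] acceptor: tacatatatttttcttgcAGtatgtaagac
AT4G25550 donor: gattctactgGTatgataattttcgatctg
AT4G25550 acceptor: tatgctgcttaacatattAGgtgcaagaac

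The last set shows the rarer GC donors of AT1G25175, ALY4 and AT1G66260. The AT1G25175 intron lies at chr1:8827624-8828297 on the plus strand, the ALY4 intron at chr5:14982983-14983792 on the minus strand and the AT1G66260 intron at chr1:24696917-24697661 on the minus strand.
AT1G25175 donor: ccaattgaagGCaagttcacatactctgtt
AT1G25175 acceptor: acactaaaacccacatgtAGtgtgcaaaag
ALY4 donor: cattaacaagGCaagctcaaaatctgggat
ALY4 acceptor: gattctgttctattgaatAGcctgtccgta
AT1G66260 donor: cataaacaagGCaagctcgaaatcttgatt
AT1G66260 acceptor: gatatgttctactggatcAGcttgcccgca

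The libraries held 24234421 to 32387080 reads on genes. All 11 seed markers fixed for the check, which are genes of storage proteins, oleosins and late embryogenesis proteins, were present at 84.9 to 65431 CPM (counts scaled to the TMM-adjusted library size) in each library. Of the green leaf genes, LHCB2.1 stayed at or under 0.298 CPM, LHCB1.3 lay at 3.77 to 8.93, RBCS3B at 7.74 to 188 and RBCS1A at 265 to 774 CPM. Rp replicate 3 stood apart in its junction reads, most of all in 5′ leaders. At the 197 long introns in 5′ leaders, the median of junction reads per 1000 reads of the host gene was 25.1, 24.3 and 56.6 in the Rp libraries, against 26.1, 29.6 and 28.6 in the FRp libraries. At the 61 long introns in 3′ UTRs, it was 112, 123 and 92.5 in the Rp libraries, against 116, 122 and 123 in the FRp libraries. At the 1503 coding introns, it was 60.9, 53.2 and 77.4 in the Rp libraries, against 61.3, 64.6 and 65.6 in the FRp libraries. The total counts of called introns and host genes are therefore also given without this library.

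Retention in long introns was low in most cases. The median PIR, from the reads of all 6 libraries together, was 0.885% for the 1819 long introns and 0.442% for all 57879 constitutive introns. A PIR under 1% was found in 974 long introns, 591 lay between 1 and 5%, 185 between 5 and 20%, 47 between 20 and 50%, and 22 at 50% or above. The share with a PIR over 5% was 15.3, 15.2 and 13.8% in the Rp libraries and 16.8, 17.8 and 16.4% in the FRp libraries. Over all constitutive introns it was 8.17, 9.01 and 7.45% in the Rp libraries and 9.20, 9.30 and 8.2% in the FRp libraries. Each of the 6 libraries had a larger share among the long introns than among all constitutive introns, and among the long introns the Rp libraries lay below the FRp libraries without overlap. At the other end, 197 long introns had no boundary read in any library. The deepest of these was the fourth intron entry of HSBP (AT4G15802), a binding partner of heat shock factors, 611 nt long and with 2327 junction reads, where a count of 0 allows a PIR of up to 0.0644%. This limit and the other intervals cover counting error only.

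Retention was higher in longer introns (plot of retention by intron length). The median PIR was 0.737% in 767 introns of 500 to under 600 nt, 0.845% in 661 of 600 to under 800 nt, 0.956% in 208 of 800 to under 1000 nt, 1.42% in 142 of 1000 to under 1500 nt, and 5.4% in 41 of 1500 nt or more. In the same order, a PIR over 5% was found in 10.3, 13.5, 15.4, 22.5 and 53.7% of the introns. Introns of 80 nt or less had a median of 0.606%, above the 0.358% of introns of 81 to 150 nt. Median junction reads per intron in the bins from 500 nt upward were 288, 357, 384.5, 338.5 and 226, so that the introns of 1500 nt or more were also those with the fewest junction reads.

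**Figure D1:**
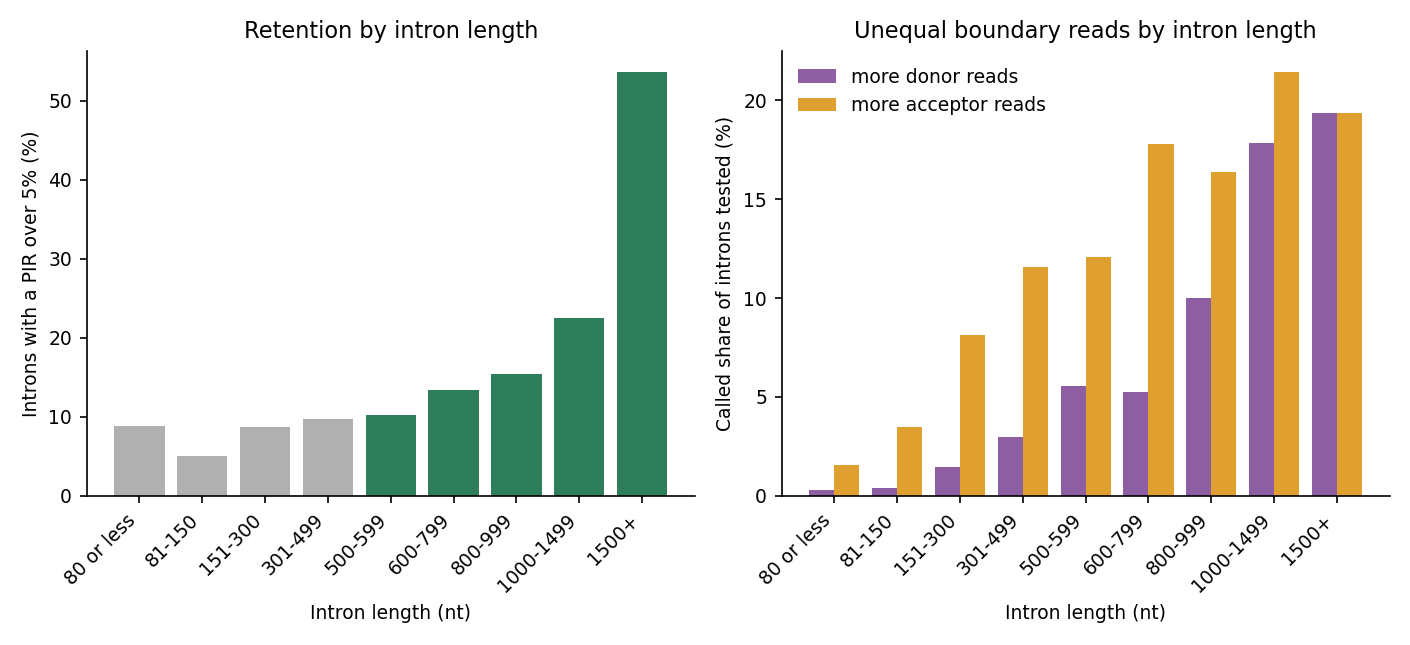
Bars show, by intron length in nt, the percentage of constitutive introns with a PIR over 5% (left, long introns in green and shorter ones in grey) and the percentage of tested introns called for more donor or more acceptor boundary reads (right). The share over 5% reached 53.7% in introns of 1500 nt or more, and the share with more donor reads 19.4%.

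Many long introns were first introns. Of the 1803 that match an annotated intron of the same gene in TAIR10.1, 904 (50.1%) were the first intron of a transcript, against 13.7% of all constitutive introns. Only coding exons flanked 1503 of them (83.4%, against 94.1% of all), while 197 lay in the 5′ UTR (10.9%, against 2.00%) and 61 in the 3′ UTR (3.38%, against 0.986%). Another annotated gene overlapped 130 of the long introns (7.15%, against 1.15%), on the same strand in 43 and on the opposite strand in 91. On the nuclear chromosomes, 510 were on chromosome 1, 256 on chromosome 2, 349 on chromosome 3, 259 on chromosome 4 and 443 on chromosome 5, and 2 were organelle introns. In 107 genes more than 1 intron was long, with at most 3 in a gene.

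Retention differed in value between these classes. The 61 introns of 3′ UTRs had a median PIR of 3.15%, and 45.9% of them exceeded 5%. In the 5′ UTR the median was 0.876% and 16.2% exceeded 5%, and among coding introns it was 0.844% with 11.2% over 5%. Introns that a RefSeq transcript of the gene retains whole (116, 6.38% of the long introns against 3.14% of all) had a median of 6.16%, compared with 0.791% for the 1701 others. Where another gene overlapped the intron, 31.5% exceeded 5%, compared with 12.5% of the introns without one. The sources do not say if counting used the strand, so reads of the overlapping gene could not be separated from reads of the intron.

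Splice sites had close values in long and in all constitutive introns. GT and AG ends were found in 1802 of the nuclear long introns (99.2%, against 99.0% of all), GC and AG ends in 15 and AT and AC ends in none. The donor hexamer GTAAGT was present in 10.2% of the long introns and 9.28% of all, an acceptor ending in CAG in 71.4 and 68.2%, and the median GC content was 33.6 and 33.3%. The branch-point letters CTAAC occurred in the last 60 nt of 6.49% of the long introns and 5.58% of all. The letters TTNGATNTG, a motif known from leader introns that enhance expression, were searched on the transcript's strand only, in the first 200 nt, and were found in 10.2% of the long introns, against 7.84% of all introns with such a window. In long 5′ UTR introns the motif was present in 18.8%, against 14.5% of all 5′ UTR introns with such a window. These are matches of letters only.

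Of the 1819 long introns, 1136 could be tested for a change in retention, while 681 had fewer than 5 boundary reads in all and 2 belonged to genes under the expression minimum. After the Rp, 34 of the tested long introns changed, 11 toward higher and 23 toward lower PIR, by edgeR's quasi-likelihood test on inclusion and exclusion reads of all events, adjusted by Benjamini-Hochberg (adjusted p under 0.15 and a difference over 0.5 points). This is 2.99% of those tested, against 2.43% of all 28466 testable events (0.994% higher and 1.44% lower) and 2.1% of the constitutive introns (0.811% higher and 1.29% lower). An unadjusted p under 0.05 was reached by 146 of the 1136. The share over all tested introns is not given here, so this count shows nothing particular to long introns. The count was 16 without Rp replicate 3 (7 higher and 9 lower) and 16 to 22 with any library left out, so leaving out any of the 6 lowered it by more than 1.5 times. DESeq2 called 9, limma 4 and the acceptor boundary alone 41. With every library left out in turn, 9 of the 34 remained called, in AT1G29465, SUF4, VMA10, AT1G25175, AT5G01350, AT4G25550, AT2G02570, MORF9 and SR30, and 2 were called in none of these fits.

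The median difference in PIR over the tested long introns was -0.10 points, compared with 0.00342 over all tested constitutive introns, and 44.1% of the long introns lay above 0, compared with 50.2% of all. The values of the Rp and FRp libraries did not overlap in 249 (21.9%) of the tested long introns, against 17.7% of all tested constitutive introns. A difference over 10 points was found in 19 of the 34 called introns and one under 1 point in 5. The median SD over the 3 replicates was 0.947 points after the Rp and 1.18 after the FRp.

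**Figure D2:**
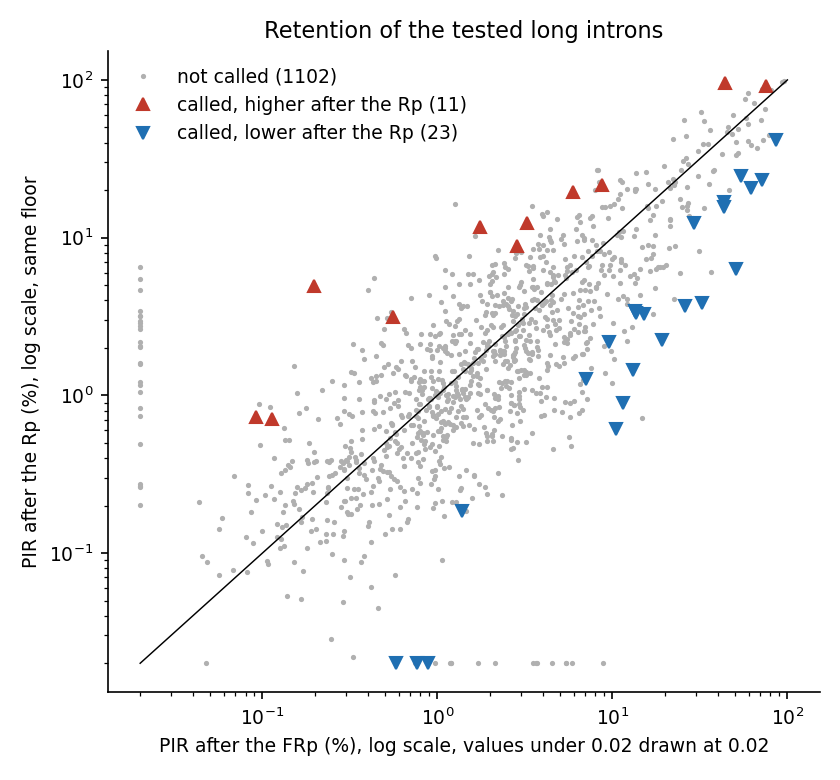
Each point is 1 of the 1136 tested long introns, with its PIR from the 3 Rp libraries together against that from the 3 FRp libraries together, both in percent on log scales, and the line marks equality. The 11 called introns above the line and the 23 below it spread from a PIR under 1% to above 90%.

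The largest called difference toward higher retention was in AT1G29465, a gene of unknown product. Its leader intron of 759 nt had a PIR of 93.4, 94.1 and 100% after the Rp, against 47.5, 44.3 and 41.2% after the FRp (adjusted p = 5.54e-08, edgeR). The groups were far apart, and the junction itself was seen 5, 5 and 0 times after the Rp, against 21, 27 and 30 times after the FRp. Several RefSeq RNA genes overlap this intron on the same strand, and their part in the boundary reads was not tested. The host gene was at 9.66 ± 3.78 CPM after the Rp and 8.76 ± 0.796 CPM after the FRp (SD, n = 3 each) and was not called.

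The largest called difference toward lower retention was in SUF4 (AT1G30970), a zinc finger protein needed for the activation of the flowering repressor FLC. Its intron of 519 nt had a PIR of 22.2, 20.2 and 27.3% after the Rp, against 69.6, 81.6 and 60.7% after the FRp (adjusted p = 7.67e-08, edgeR). All 3 Rp libraries lay below all 3 FRp libraries, and the junction reads were 159, 170 and 160 after the Rp, against 51, 50 and 80 after the FRp. A RefSeq transcript of SUF4 retains this intron. The boundary reads of the intron were unequal, with 145 at the donor and 1076 at the acceptor. The RefSeq gene AT1G06397 overlaps the intron on the same strand, and its part in the boundary reads was not tested. The SUF4 gene itself fell to 53.7 ± 6.52 CPM after the Rp, against 84.6 ± 13.2 CPM after the FRp (log2 fold change -0.65, SE 0.13, adjusted p = 0.000436, edgeR).

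The list of splicing factor genes held 9 long introns, of which 7 were tested, with 1 called higher and 2 lower after the Rp. Among all long introns tested, 0.968% were called higher and 2.02% lower. The SR proteins on this list bind exonic RNA and guide splice site choice, and their own transcripts are known targets of alternative splicing in plants. The SR30 intron (AT1G09140), of 604 nt, had a PIR of 11.2, 13.3 and 12.6% after the Rp, against 4.17, 2.88 and 2.82% after the FRp (adjusted p = 0.019, edgeR). The RS31 intron (AT3G61860), of 798 nt, had a PIR of 19.3, 19.8 and 14.1% after the Rp, against 55.5, 40.2 and 39.1% after the FRp (adjusted p = 0.0141, edgeR). The SCL30A intron (AT3G13570), of 725 nt, had a PIR of 19.1, 19.5 and 12% after the Rp, against 47, 42.8 and 42.3% after the FRp (adjusted p = 0.0174, edgeR). In each of these 3 introns the groups did not overlap, SR30 going up and RS31 and SCL30A going down. SR30 remained called with each library left out, and RS31 and SCL30A in 5 of 6 such fits. With the donor boundary only, all 3 calls were lost (adjusted p = 0.378 in SR30, 0.815 in RS31 and 0.504 in SCL30A, edgeR). With the acceptor boundary only, all 3 were kept. DESeq2 called SR30 but not RS31 or SCL30A, and limma called none of the 3. The acceptor boundary carried most reads in all 3, with 27 donor and 108 acceptor reads in SR30, 19 and 583 in RS31, and 71 and 378 in SCL30A.

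Of the other 6 long introns of splicing factor genes, none was called for retention. Those of RS41 and SCL33 had too few boundary reads to be tested. The intron of AT1G60900, which encodes the large U2AF subunit that binds the polypyrimidine tract, had a PIR of 28.7, 53.5 and 43.4% after the Rp and 56.5, 66.2 and 29.2% after the FRp, and the groups overlapped. SR34a had 8.57, 3.30 and 5.75% after the Rp and 1.12, 4.41 and 0% after the FRp in a leader intron of 535 nt. In SCL30 (1100 nt) the values were 0.528 to 0.803% after the Rp and 0.542 to 1.38% after the FRp, and in RS41, SCL33 and PTB1 there were 1, 3 and 6 boundary reads in all. At the mRNA level, 5 of the 9 host genes fell after the Rp and none rose. Among all genes tested, 26.8% fell and 28.8% rose. The median log2 fold change of the 9 was -0.61, compared with -0.12 over all host genes. Those 5 were SR30 (log2 fold change -1.45), SCL33 (-1.39), RS31 (-1.06), SCL30 (-0.83) and RS41 (-0.61).

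Other genes of RNA metabolism followed, as counted by product name. Of 71 long introns in genes of RNA-binding proteins, 56 were tested, none was called higher and 4 were called lower after the Rp (RS31, SCL30A, AT2G02570 and AT5G51300), with a median difference of -0.53 points. The shares were 0.968% higher and 2.02% lower over all tested long introns. Over all tested constitutive introns they were 0.811 and 1.29%. The product names leave SR30 and ALY4, both called higher, out of this group. The intron of AT2G02570, an RNA-binding protein, had a PIR of 18.7, 28.2 and 19% after the Rp, against 68.6, 57.5 and 64.4% after the FRp (adjusted p = 0.000561, edgeR), without overlap. The AT5G51300 intron, in the gene of a splicing factor-like protein, had 12.6, 9.32 and 15.5% after the Rp, against 29.4, 30.1 and 28.3% after the FRp (adjusted p = 0.0928, edgeR). Of the fits with 1 library left out, only that without Rp replicate 3 kept the AT5G51300 call. Outside this group, the second intron of AT4G25550, the 25 kDa subunit of a cleavage and polyadenylation factor, had 2.68, 2.99 and 1.61% after the Rp, against 22.3, 20.3 and 15.7% after the FRp (adjusted p = 0.000272, edgeR). In AT4G25550, 85 of the 90 boundary reads lay at the donor, and the donor reads were 7, 5 and 6 after the Rp and 21, 27 and 19 after the FRp, while the junction was read 127, 81 and 183 times after the Rp and 40, 53 and 59 times after the FRp. ALY4 (AT5G37720), an RRM protein of the mRNA export adaptor family, had an intron of 810 nt with a GC donor and a PIR of 8.91, 12.7 and 7.32% after the Rp, against 1.92, 3.50 and 2.95% after the FRp (adjusted p = 0.0486, edgeR).

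A GC donor was present in 15 long introns, of which 10 were tested, 2 were called higher and none lower. Over all tested long introns, 0.968% were called higher and 2.02% lower. The 2 calls are too few to show a trait of GC donors, and that of ALY4 held in only 3 of 6 fits with 1 library left out. Besides ALY4, the called one lay in the noncoding RNA gene AT1G25175, with a PIR of 22.5, 22.7 and 15% after the Rp, against 7.25, 5.42 and 5.63% after the FRp (adjusted p = 2.08e-05, edgeR). It was the most deeply read of the called introns, with 3820 boundary and 14247 junction reads. The intron of AT1G66260, a gene of the same RRM family as ALY4, was retained at 37.7% over all libraries and was not called. The median PIR of the 15 was 2.22%, compared with 0.890% for long introns with a GT donor other than GTAAGT.

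Further called introns lay in VMA10, PDV1, AT1G36390, MORF9 and AT1G14450. VMA10 (AT3G01390), a subunit of the vacuolar proton pump, had a leader intron of 536 nt with a PIR of 6.15, 3.59 and 2.19% after the Rp, against 28.4, 31.4 and 19.8% after the FRp (adjusted p = 2.48e-06, edgeR). In VMA10, 6 boundary reads lay at the donor and 212 at the acceptor. With the donor boundary only, the call was lost (adjusted p = 0.754, edgeR). The VMA10 mRNA level was 100.5 ± 3.71 CPM after the Rp and 95.9 ± 5.07 CPM after the FRp (SD, n = 3 each) and was not called. PDV1 (AT5G53280), which acts in plastid division, had a first intron of 676 nt with 27.3, 34.8 and 15.2% after the Rp, against 48.9, 54.6 and 57.5% after the FRp (adjusted p = 0.0629, edgeR), and 458 of its 465 boundary reads lay at the acceptor. AT1G36390, a co-chaperone of the GrpE family, had 2.94, 4 and 2.97% after the Rp, against 11.8, 11.3 and 25.4% after the FRp (adjusted p = 0.0303, edgeR). MORF9 (AT1G11430), a factor of plastid RNA editing, had no boundary read in the 3 Rp libraries, against 0.984, 0.737 and 0.966% after the FRp (adjusted p = 0.00774, edgeR). Only 10 boundary reads stand behind the MORF9 call, beside 2121 junction reads. AT1G14450, a subunit of mitochondrial NADH dehydrogenase, was of the same kind, with 0.0499, 0 and 0% after the Rp, against 0.752, 0.746 and 0.327% after the FRp (adjusted p = 0.0211, edgeR). MORF9 and AT1G14450 rose as genes, with log2 fold changes of 1.09 and 1.3.

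AT1G70190, a ribosomal protein L7/L12 relative, had a PIR of 88.9, 93.5 and 94.5% after the Rp, against 75.5, 77.6 and 71.9% after the FRp (adjusted p = 0.0394, edgeR), from 1339 donor and 5 acceptor reads. AT1G22600, a late embryogenesis abundant (LEA) protein, had 21.2, 26.9 and 16.4% after the Rp, against 7.64, 10.1 and 8.13% after the FRp (adjusted p = 0.0887, edgeR), from 307 donor and 17 acceptor reads. In AT1G70190 the donor reads were 354, 344 and 242 after the Rp and 117, 156 and 126 after the FRp. The AT1G22600 donor reads were close, with 47, 63 and 36 after the Rp and 44, 67 and 50 after the FRp. Its junction was read 91, 87 and 92 times after the Rp, against 290, 325 and 305 times after the FRp. The acceptor reads alone gave -6.94 points in AT1G70190 and -0.40 points in AT1G22600. AT5G01350 and the A20/AN1 zinc finger gene AT1G51200 were called at differences of 0.591 and 0.639 points. In the kinase gene AT1G67580 the PIR was 0.840, 2.56 and 12.1% after the Rp, against 0, 0 and 0.546% after the FRp (adjusted p = 0.0582, edgeR), and 13 of its 18 boundary reads came from Rp replicate 3. IDD4 (AT2G02080), a zinc finger transcription factor, had 3.64, 20 and 14.3% after the Rp, against 0.952, 2.97 and 1.23% after the FRp (adjusted p = 0.126, edgeR), and AT5G62200 2.94, 3.14 and 3.28% against 0.322, 0.403 and 0.885%. The AT5G62200 call was lost with any library left out.

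The introns of AT5G62760 and AT5G61330 completed the lower introns taken by smallest p. AT5G62760, a P-loop hydrolase, had a PIR of 13.3, 6.38 and 0% after the Rp, against 29.4, 56.5 and 60% after the FRp, from 40 boundary reads. AT5G61330, an rRNA processing protein, had 1.69, 0 and 0.457% after the Rp, against 20, 10.3 and 4.17% after the FRp. The 11 called introns not described by this rule were all lower after the Rp, by 0.765 to 45 points, at adjusted p of 0.0659 to 0.128 (edgeR). They include AT5G51300 above, UGT85A1 with 52.5, 64.2 and 26.9% after the Rp against 80, 87.1 and 92.6% after the FRp, and HSFA1E, a master regulator of the heat response, with 6.67, 3.45 and 2.22% after the Rp against 18, 43.9 and 32.1% after the FRp. UGT85A1, HSFA1E and AT5G51300 were picked after their values were seen.

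**Figure D3:**
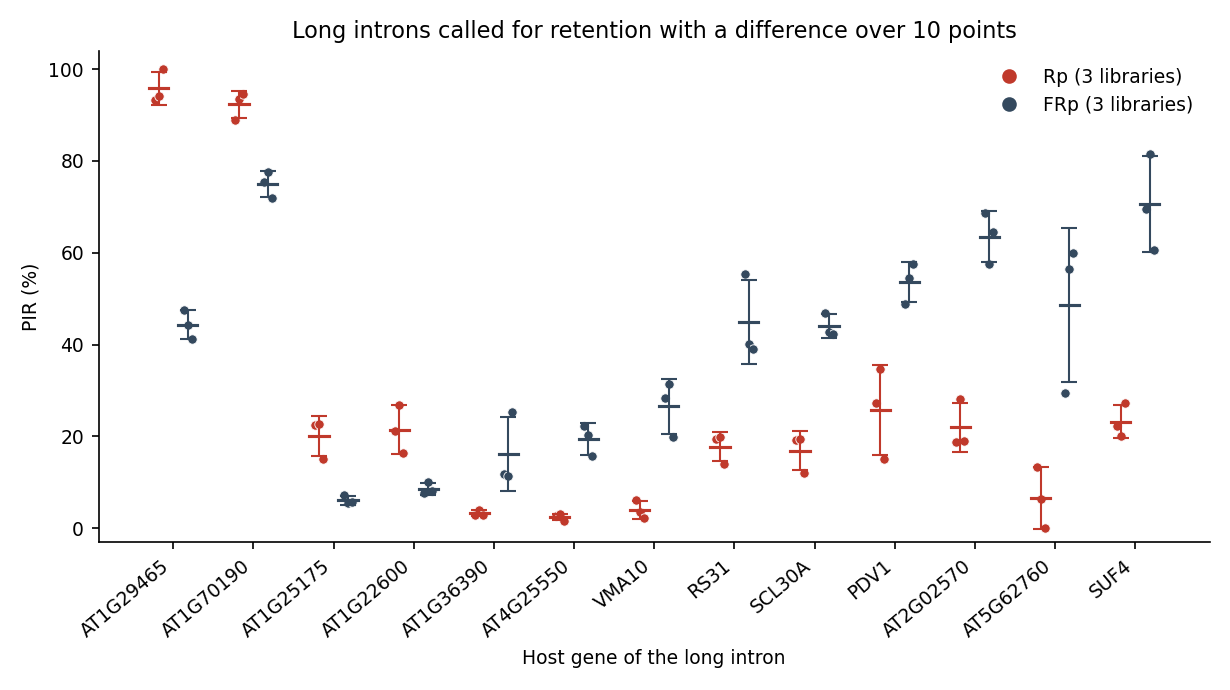
PIR in percent of each Rp library (left, red) and each FRp library (right, dark grey) for the 13 described introns called with a difference over 10 points, with the mean as a bar and the SD over 3 libraries as the error bar. AT1G29465, AT1G70190, AT1G25175 and AT1G22600 were higher after the Rp and the other 9 lower, and no intron shown had overlapping groups.

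Host genes of long introns were tested over the same libraries. Of 1699 host genes tested, 838 (49.3%) changed after the Rp, 361 rising and 477 falling, by edgeR's quasi-likelihood test after TMM normalization (a fold change over 1.5 and a Benjamini-Hochberg adjusted p under 0.05), against 55.6% of all 16924 genes tested (28.8% higher and 26.8% lower). The count was 850 without Rp replicate 3. The split depended on scaling. Without TMM, 641 rose and 246 fell, so that 72.3% of the calls were higher in place of 43.1%, and the median over all genes was 0.45 in place of 0.02. The median log2 fold change of the host genes was -0.12 with TMM and 0.31 without it, below the median of all genes in both cases. Falls also outnumbered rises among the 11289 tested host genes of all constitutive introns with enough reads. There, 2651 rose and 3078 fell, with a median log2 fold change of -0.06 with TMM. In whole seeds, fewer cells of a type and less RNA per cell cannot be told apart in such values.

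Of the 34 introns called for retention, 18 lay in host genes that fell, 9 in host genes that rose and 7 in genes that were not called (plot of called introns and their host genes). The PIR difference and the log2 fold change of the host gene had opposite signs in 19 of the 34, or 55.9%, compared with 56.4% of the 1102 tested long introns without a call and 69.3% of the 505 called introns under 500 nt. In SR30, ALY4 and AT5G01350 retention was higher and the gene lower after the Rp, and in AT4G25550, AT1G36390 and MORF9 retention was lower and the gene higher. In SUF4, RS31 and AT2G02570 both were lower.

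**Figure D4:**
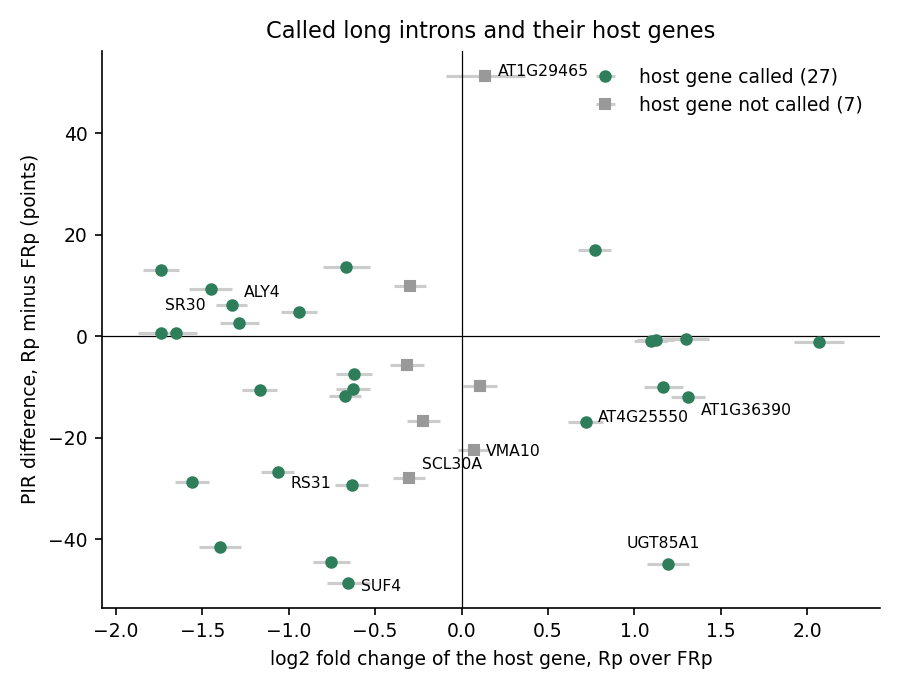
The PIR difference in points (Rp minus FRp) of the 34 called long introns against the log2 fold change of their host genes (Rp over FRp), with the SE as horizontal bars. Green circles are the 27 introns whose host gene was called and grey squares the 7 whose host gene was not, and 19 of the 34 lie in the upper left or lower right quadrant.

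Reads over the donor and acceptor boundaries were compared next, a ratio that the choice of introns did not use, although the reads over both boundaries counted toward its read minimum. Of 836 long introns with at least 10 boundary reads, 198 had unequal boundaries, 65 with more donor and 133 with more acceptor reads, in edgeR's quasi-likelihood fit (Benjamini-Hochberg adjusted p under 0.05 and a ratio over 2). This is 23.7%, against 6.49% of all 17009 introns tested (1.18% donor and 5.31% acceptor), and 5.73% of the 15388 constitutive introns under 500 nt in the eligible set. The count was 100 without Rp replicate 3 (45 donor and 55 acceptor) and between 65 and 118 with any library left out. Without Rp replicate 2 the 65 calls were 34 donor and 31 acceptor, so that the direction of the split turned, and without Rp replicate 1 there were 81 calls, 38 donor and 43 acceptor. With at least 30 boundary reads, 197 of 347 long introns were called (56.8%), against 20.7% of all 5871. The median log2 ratio of donor to acceptor reads was -1.13 in the long introns and -0.53 in all introns tested, so that acceptor reads prevailed in both.

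More donor reads were called in 7.78% of the long introns tested and 0.838% of the shorter ones, and more acceptor reads in 15.9 and 4.89%. By length, the share with more donor reads was 0.297% at 80 nt or less, 2.99% above 300 and under 500 nt, 5.54% from 500 to under 600 nt, 10% from 800 to under 1000 nt and 19.4% at 1500 nt or more, where 31 introns were tested and 6 called in each direction. The median number of boundary reads in the same bins was 22, 23, 21, 22.5 and 48. In the annotation, a RefSeq exon covered the donor but not the acceptor in 18 of the 65 introns with more donor reads (27.7%), compared with 10.5% of those with more acceptor reads and 5.96% of those not called. Neither boundary was covered in 33 of the 65 and in 91 of the 133. The median PIR was 15% in the introns with more donor reads, 3.81% in those with more acceptor reads and 1.97% in those not called. PIR and the balance test use the same boundary reads, and a call is easier with more of them. The higher PIR of the called introns is therefore not a separate result.

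Genes of mRNA 3′ end formation were among the strongest cases with donor reads. FPA (AT2G43410), an RNA-binding protein that controls flowering time and the choice of polyadenylation sites, had 41, 23 and 23 donor reads after the Rp and 19, 37 and 40 after the FRp in its first intron of 1371 nt, and no acceptor read in any library. Donor reads were thus at least 61-fold higher than acceptor reads, taking 3 reads over all libraries as the limit that a count of 0 allows (adjusted p = 1.03e-40, edgeR). RefSeq holds 6 FPA transcripts, 1 of them with an exon over the donor only. The FPA intron also had only 72 junction reads, and its PIR of 74.5, 74.2 and 29.1% after the Rp overlapped the 46.3, 55.2 and 74.1% after the FRp. FIP1[V] (AT5G58040), a subunit of the polyadenylation machinery that binds poly(A) polymerase, had 24, 16 and 18 donor reads after the Rp and 66, 80 and 63 after the FRp in a first intron of 528 nt, and again no acceptor read, a ratio of at least 89 (adjusted p = 5.23e-50, edgeR). No RefSeq exon covers either boundary of the FIP1[V] intron. The FIP1[V] gene fell to 87.8 ± 9.10 CPM after the Rp, against 195 ± 15.2 CPM after the FRp (log2 fold change -1.15, SE 0.11), whereas FPA was at 42.9 ± 3.73 CPM after the Rp and 43.8 ± 3.37 CPM after the FRp (SD, n = 3 each). With AT4G25550 above, 3 genes whose products act in 3′ end formation had donor reads without matching acceptor reads, and they were set side by side here after their values were seen.

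The other introns with the largest donor ratios were those of BGLU42, AT1G70190 and PRA1.B1. BGLU42 (AT5G36890), a beta-glucosidase, had 388 donor reads and no acceptor read, a ratio of at least 129, and its gene rose with a log2 fold change of 2.37. PRA1.B1 (AT3G56110), a small membrane protein that binds Rab GTPases, had 470 donor and 4 acceptor reads in an intron of 1724 nt in the 3′ UTR. In BGLU42, AT1G70190 and PRA1.B1, RefSeq holds a transcript with an exon that covers the donor and ends before the acceptor. Acceptor reads prevailed most in AT1G69252, a noncoding RNA gene with 1 donor and 1531 acceptor reads, where RefSeq holds an exon over the acceptor only. The next were AGL87, a MADS-box gene with 0 and 106, PDV1 with 7 and 458, AT1G54380, a spliceosome protein-like gene with 2 and 85, and AT4G18570 with 0 and 21 donor and acceptor reads.

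**Figure D5:**
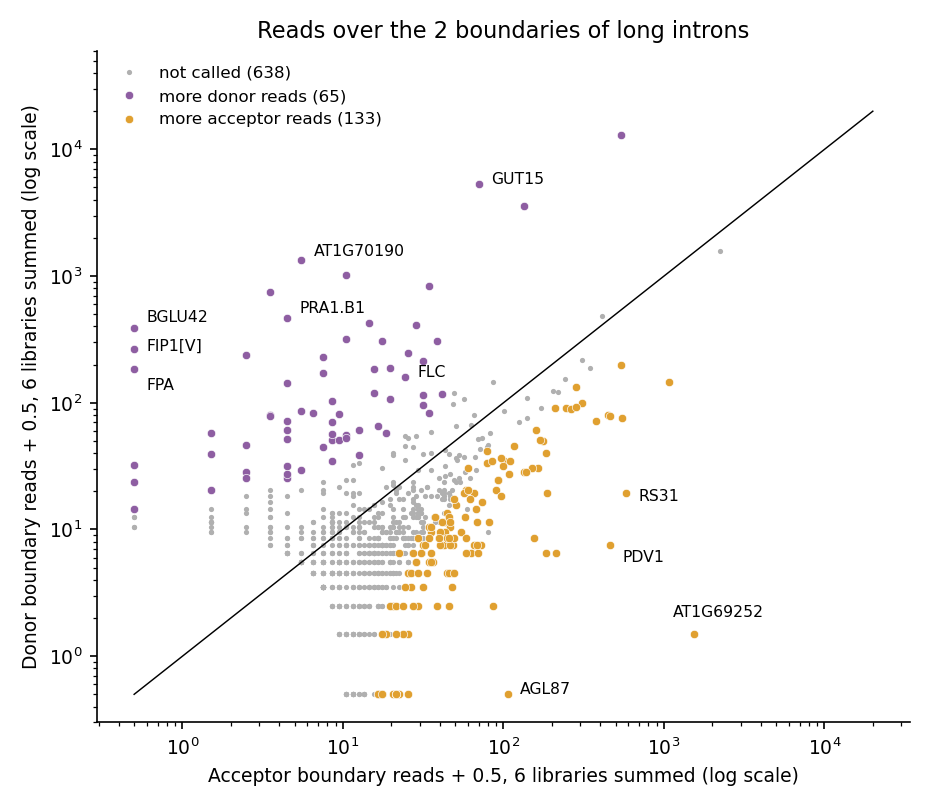
Donor against acceptor boundary reads of the 836 long introns tested, summed over 6 libraries and drawn on log scales after adding 0.5, with the line marking equality. The 65 introns with more donor reads (purple) lie above the line and the 133 with more acceptor reads (orange) below it, and FPA, FIP1[V] and BGLU42 sit at the left edge with 0 acceptor reads.

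Of 71 long introns in genes of RNA-binding proteins, 45 were tested for boundary balance and 18 called, beside 23.7% of all long introns tested and 6.49% of all introns tested. Of the 70 in genes of translation proteins 17 of 39 were called, of the 98 in genes of transcription factors 12 of 48, of the 67 in genes of kinases 4 of 24, of the 61 in genes of ubiquitin and F-box proteins 4 of 23, of the 57 in genes of transporters 5 of 27, and of the 22 in genes of chromatin proteins 1 of 11. At the mRNA level, 39 of the 70 host genes of translation proteins rose after the Rp and 6 fell, while 4 of the 59 host genes of ubiquitin and F-box proteins rose and 27 fell, beside 28.8% higher and 26.8% lower among all genes tested. These groups were formed by words in the product name, so kinases include metabolic ones.

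The 22 long introns with a PIR of 50% or more were mostly unequal at their boundaries, 13 with more donor and 7 with more acceptor reads, and for 13 of them RefSeq holds an exon over at least 1 boundary. A balance call is easier with many boundary reads, and 56.8% of all long introns with at least 30 of them were called. The highest PIR of the 22 was that of AT1G69252, with 100, 96.2 and 100% after the Rp and 95.9, 96.3 and 95.5% after the FRp. GUT15 (AT2G18440), a noncoding RNA, had 97.5, 96.8 and 96.6% after the Rp and 92.8, 93.7 and 92.1% after the FRp. The GUT15 values did not overlap but the change was not called (adjusted p = 0.2, edgeR). AGL67, a MADS-box gene, had 83.2, 90.7 and 83.8% after the Rp and 86.2, 78.1 and 79.3% after the FRp, and its gene fell to 36.3 ± 3.12 CPM after the Rp, against 619.5 ± 65 CPM after the FRp (log2 fold change -4.09, SE 0.13). BGLU42 had 88.5, 90.7 and 87.9% after the Rp and 100, 73.7 and 60% after the FRp. Long introns of noncoding RNA genes numbered 19, with a median PIR of 8.28%, and 13 of them exceeded 5%.

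The entry of 4672 nt in AT4G03935 and that of 4453 nt in IMPL2, an inositol monophosphatase, are not annotated introns in TAIR10.1 and span other genes. AT4G03935 had 8 boundary and 338 junction reads, and IMPL2 had 6 and 265. The KNAT6 intron of 3676 nt, in a homeobox gene of the meristem, had a PIR of 5.26, 23.8 and 17.5% after the Rp and 4.35, 17.1 and 3.23% after the FRp. The FLC intron of 3493 nt holds the elements through which cold silences this flowering repressor. It had 32.4, 22.6 and 32.3% after the Rp and 29.2, 25.5 and 27.2% after the FRp, and neither group stood apart. Most of the FLC boundary reads lay at the donor (160, with 24 at the acceptor, adjusted p = 4.54e-17, edgeR), an antisense gene overlaps the intron, and the FLC gene fell to 11.4 ± 1.23 CPM after the Rp, against 43.1 ± 2.70 CPM after the FRp (log2 fold change -1.92, SE 0.11). The intron of 3480 nt in the noncoding AT3G27990 had 2.78 to 9.09% after the Rp and 7.02 to 10.8% after the FRp. Of the 40 tested introns of 1500 nt or more, none was called for retention, beside 2.1% of all tested constitutive introns. With 40 introns, such a share cannot be told from none.

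The list of light, clock and seed hormone genes held 8 long introns in 6 genes, 4 of them tested and none called. At the mRNA level, 4 of the 6 genes fell after the Rp, beside 26.8% of all genes tested. PHYA, the photoreceptor of far-red light, fell to 390 ± 45.1 CPM after the Rp, against 1546 ± 130 CPM after the FRp, with a PIR of 0, 0 and 2.35% after the Rp and 0.800, 3.30 and 7.69% after the FRp in its leader intron of 923 nt. GA2OX2, which inactivates gibberellin, fell to 5.34 ± 0.710 CPM after the Rp, against 62.7 ± 2.52 CPM after the FRp, with an intron PIR of 2.44 to 4.55% after the Rp and 1.64 to 2.87% after the FRp. ELF3, of the evening complex of the clock, had 19.4, 35.1 and 21.6% after the Rp and 30, 24.5 and 12% after the FRp. ABI5, a bZIP factor of abscisic acid signalling, fell with a log2 fold change of -1.37 and had 2 boundary and 473 junction reads. CYP707A2, an abscisic acid 8′-hydroxylase, had 1.64 to 4.20% after the Rp and 3.03 to 7.96% after the FRp, and the 3 long introns of COP1, a repressor of photomorphogenesis, had 1, 3 and 0 boundary reads beside 111, 84 and 273 junction reads.

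The 6 long introns of housekeeping genes with leader introns were spliced almost completely in 5 cases. The elongation factor genes AT1G07920 and AT1G07930, near-identical copies between which reads may be split, had 10 boundary and 1962 junction reads and 7 and 2761, and ACT7 had 12 and 2482. PRF1 had 2 boundary and 853 junction reads, and the cytochrome c oxidase subunit gene AT2G47380 had a PIR of 1.35 to 1.51% after the Rp and 0.226 to 2.86% after the FRp. The exception was the 1008 nt leader intron of AT5G61310, another gene of this cytochrome c oxidase subunit family, with 43.9, 44.7 and 46.2% after the Rp and 100, 68.4 and 78.9% after the FRp. The AT5G61310 groups did not overlap, but the difference did not pass (adjusted p = 0.343, edgeR), with 63 junction reads in all. Among these 6 host genes 4 rose after the Rp and none fell, beside 28.8% higher and 26.8% lower among all genes tested. AT1G07930 rose with a log2 fold change of 1.01.

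At the length limit, the introns just inside were those of U2A′, RAB18 and AT1G75860, each of 500 nt. U2A′ had a PIR of 0 to 1.19% after the Rp and 0 to 0.455% after the FRp, RAB18 had 0.214 to 0.585% after the Rp and 0 to 1.56% after the FRp, and AT1G75860 had 70.1 to 83.0% after the Rp and 49.1 to 67.1% after the FRp. Just outside, at 1 nt less, AT1G09730 had 0% in the 3 Rp libraries and up to 3.03% after the FRp, AT2G22080 had 2.26 to 4.97% after the Rp and 1.90 to 3.05% after the FRp, and AT2G22120 had no boundary read.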

How the data were processed

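PolyA RNA of 6 seed libraries was sequenced as paired ends. The authors aligned reads to TAIR10 with TopHat2 2.1.1 and SAMtools 1.3, with a set maximum intron length above which no junction could be found, and deposited raw gene counts for 33602 genes and raw counts on junctions and boundaries. They also deposited, for each condition, the fraction of inclusion (PSI) or retention (PIR) from pooled replicates, which was recomputed from the counts and not used as a measurement. Whether strand was used is not stated.

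Retention was tested with edgeR 4.0.16 in R 4.3.3 (quasi-likelihood, 1 coefficient per library) on inclusion and exclusion reads of every testable event. Testable events had a mean of at least 10 reads per library in each condition, inclusion and exclusion reads together (for an intron, both boundaries and the junction), at least 5 reads on each side in total, and a gene over 10 reads and a read density over 0.05. Gene counts were tested with TMM, and donor against acceptor counts in introns with at least 10 boundary reads. Alternatives were DESeq2 1.42.0, limma 3.58.1 on log2 ratios (pseudocount 0.5), a replicate block, other minimums and thresholds, and each library left out. Figures used matplotlib 3.10.9 in Python 3.11.15.

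The first and second boundary columns follow the genome and not the transcript. In introns of the minus strand with an annotated exon over the acceptor only, the first column was more than 2 times the second in 45 and the reverse held in 3, and on the plus strand the numbers were 0 and 26. Columns were therefore assigned to donor and acceptor by strand, which the planned test had not foreseen. Positions were read on TAIR10.1, where 32834 of 32835 shared loci lie at the same place. Mitochondrial positions were not used there.

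Introns described one by one were the 12 called higher (11 existed) and the 12 lower with the smallest p, the 5 longest, the 5 of highest mean PIR, the 5 largest called boundary ratios in each direction, members of fixed gene lists, and 3 introns on each side of the length limit. The introns, lists and keyword groups were chosen with earlier results of these data known. An SE is the absolute log2 fold change divided by the root of F. The tests were tried on simulated data. For retention and boundary balance, the changed events were drawn only among those with many reads, so the trial does not cover most long introns.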

Additional observations from a re-analysis of the deposited data

How the results depend on the processing

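The 34 long introns called for retention became 13 with a replicate block, 15 with the donor boundary only, 9 with DESeq2, 4 with limma, 16 at an adjusted p under 0.05, 19 at a difference over 10 points, 2 at a limit of 1000 nt, and 16 to 22 with 1 library left out; the causes were not tested. Of the 34 called introns, 9 were also called by DESeq2, 4 by limma, 13 with the block and all 34 with robust variance estimates, an alternative chosen after seeing the data. Other alternatives gave 34 to 47 calls. The 838 host genes became 441 at a fold change over 2, and 825 to 871 with 1 library left out. The 198 introns with unequal boundaries became 65 to 118 with 1 library left out, 155 with DESeq2 and 153 with a replicate block. The replicate numbers did not pair the libraries. Deviations of same-numbered libraries correlated at 0.0388, -0.113 and -0.0517 in expression and between -0.0023 and 0.0167 in junction and boundary ratios. The direction turned in 3 of the called introns, to -0.40 points in AT1G22600 and -6.94 in AT1G70190 with the acceptor boundary only and to 0.0918 in PDV1 with the donor boundary only. Of the other values of the named introns, 496 kept direction and side of the threshold, 100 lost the call and 24, all of introns without a call, changed sign. With a median of 8 boundary reads in 6 libraries, most long introns could show only large changes.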

Other observations

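The donor to acceptor ratio changed with the light pulse in 2 of all introns tested for balance, 1 of them long, in a test added after seeing the data. It was the first intron of scpl35 (AT5G08260), a serine carboxypeptidase-like gene, of 1925 nt. Donor reads in scpl35 were 140, 137 and 107 after the Rp and 6, 5 and 15 after the FRp, while acceptor reads were 2, 2 and 6 after the Rp and 4, 7 and 7 after the FRp. The donor reads of the 2 conditions did not overlap. The difference in the log2 ratio was 4.70 (SE 0.65, adjusted p = 6.03e-09, edgeR's quasi-likelihood test), and 4.29 to 5.52 with 1 library left out, when the adjusted p was 0.067 to 1 and the call was lost each time. The scpl35 gene rose to 364 ± 18.8 CPM after the Rp, against 124 ± 22.7 CPM after the FRp (log2 fold change 1.55, SE 0.13), and its PIR of 14.8, 21.6 and 6.01% after the Rp overlapped the 5.21, 5.17 and 7.59% after the FRp.

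The 2 organelle introns lie in ATMG01120 and ATCG00670. ATCG00670 is the plastid gene of a Clp protease subunit, and its PIR was 41.4% over the Rp libraries and 73.0% over the FRp libraries. By library it was 38.7, 45.7 and 36% after the Rp and 81.25, 100 and 57.1% after the FRp, with 61 junction reads in all. The groups did not overlap, but the change was not called (adjusted p = 0.243, edgeR).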
